A study of Homo sapiens with 52 samples.

Results

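Chemokine ligands are the part of the senescence secretome examined here: every gene whose symbol was CXCL or CCL with a number, XCL with a number, or CX3CL1. The rule found 41 ligands among 59408 genes, and 12 of them had a mean of at least 10 normalised reads over the 26 groups of libraries and were tested: CXCL1, CXCL2, CXCL3, CXCL5, CXCL8, CXCL10, CXCL12, CXCL14, CXCL16, CCL2, CCL26 and CX3CL1. A further 4 (CXCL6, CCL7, CCL20 and CCL24) reached a mean of 10 in at least 1 deposited table and are given by their levels only. The other 25 stayed lower, and 6 of these (CCL3, CCL4, CCL14, CCL15, CCL18 and CCL27) had no read in any of the 52 libraries. Just inside the limit were CXCL14 with a mean of 12.6 and CX3CL1 with 11.3, and just outside it were CXCL6 with 6.14 and CXCL11 with 5.05.

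RNA of WI-38 cells, a strain of normal human fibroblasts from embryonic lung, was sequenced in pairs of libraries. PMD-Sen (plasma membrane damage-dependent senescence) cells had received the detergent SDS at 0.0090%, Ca2+-Sen (calcium influx-dependent senescence) cells KCl at 75 mM, and DDR-Sen (DNA damage response-dependent senescence) cells the DNA-damaging drug doxorubicin at 250 nM. Each agent was given to young cells for 24 h and then washed away, and RNA was taken on day 0 (the end of treatment) and on 7 later days (1 to 4, 6, 8 and 16). RS (replicative senescence) cells had been passaged until they no longer divided, and the untreated cells were young and proliferating. No genotype was changed in any group. A single untreated group of 2 libraries, with no day of its own, served all 25 comparisons, so that errors in it are shared and days in culture cannot be told apart from days after treatment. All cells came from 1 strain in culture, with no leukocytes for the ligands to attract. The study describes the libraries of a group as independent samples and does not say whether these were separate cultures. In bulk RNA, fewer cells that express a ligand and less ligand RNA in each cell cannot be told apart.

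Chemokines are small secreted proteins that steer the migration of leukocytes through receptors on the leukocyte surface. They are sorted by the spacing of conserved cysteines into CXC, CC, CX3C and XC ligands. CXC ligands with the amino acids Glu-Leu-Arg before the first cysteines (ELR ligands) attract neutrophils through CXCR2, and their genes are classical targets of the transcription factor NF-kB. In senescent fibroblasts, chemokines belong to the senescence-associated secretory phenotype, through which arrested cells call immune cells that can remove them.

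The promoters of the ELR ligands are shown because these genes lie in 1 stretch of a chromosome and carry 1 shared NF-kB motif. The 6 ELR genes among the 41 ligands lie within 359 kb of chromosome 4 (chr4:73740506-74099293, GRCh38) in the order CXCL8, CXCL6, CXCL1, CXCL5, CXCL3, CXCL2. Genes outside the symbol rule were not looked at there. The interferon-induced ligands CXCL10 and CXCL11 lie further along the same chromosome. RefSeq windows of 300 bases (250 before and 50 after each gene's start, GRCh38.p14) were at hand for 30 of the 41 ligands. The motif GGAATTTCC, searched on both strands, occurred in 162 of 35116 such windows (0.461%), and in those of 8 of the 30 ligands: the 6 ELR genes, CXCL10 and CXCL11. The AP-1 motif TGAGTCA occurred in 4.95% of windows and in 6 of the ligands (CXCL8, CXCL11, CXCL14, CXCL17, CCL24 and CCL27). The core of the interferon-stimulated response element (TTTC, any 2 bases, TTTC) occurred in 3.57% of windows and in CXCL9 and CXCL10. In the sequences that follow, capitals mark the NF-kB motif or its reverse complement GGAAATTCC and the AP-1 motif or its reverse complement TGACTCA, and every sequence reads along the strand of its gene. CXCL8 is given by the 250 bases before its start, chr4:73740319-73740568 on the plus strand, with the NF-kB motif 91 bases and the AP-1 motif 137 bases before the start. The others are 81-base stretches around the motif: CXCL1 at chr4:73869279-73869359 and CXCL6 at chr4:73836553-73836633 on the plus strand, CXCL2 at chr4:74099228-74099308, CXCL3 at chr4:74038723-74038803, CXCL5 at chr4:73998723-73998803, CXCL10 at chr4:76023629-76023709 and CXCL11 at chr4:76036101-76036181 on the minus strand. The starts are those of RefSeq, while the bounds of the chromosome 4 stretch are from GENCODE. For some genes, CXCL8 among them, the RefSeq start lies inside the GENCODE bounds, so that bases before it can fall within those bounds. A match describes letters in a window and not the binding of a factor.
CXCL8: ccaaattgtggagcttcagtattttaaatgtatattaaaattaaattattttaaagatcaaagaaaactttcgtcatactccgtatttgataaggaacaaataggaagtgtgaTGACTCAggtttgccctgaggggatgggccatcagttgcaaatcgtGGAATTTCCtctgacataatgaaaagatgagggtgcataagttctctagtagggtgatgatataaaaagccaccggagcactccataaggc
CXCL1: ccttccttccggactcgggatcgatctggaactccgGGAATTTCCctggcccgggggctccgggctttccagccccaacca
CXCL2: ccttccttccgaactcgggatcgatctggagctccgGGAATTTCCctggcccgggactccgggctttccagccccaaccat
CXCL3: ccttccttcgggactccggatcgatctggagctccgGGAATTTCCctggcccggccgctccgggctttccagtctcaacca
CXCL5: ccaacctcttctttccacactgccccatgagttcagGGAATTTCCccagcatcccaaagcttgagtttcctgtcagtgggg
CXCL6: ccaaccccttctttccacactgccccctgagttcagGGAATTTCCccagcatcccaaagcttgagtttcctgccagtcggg
CXCL10: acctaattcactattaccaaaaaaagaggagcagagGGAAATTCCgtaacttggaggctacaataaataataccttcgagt
CXCL11: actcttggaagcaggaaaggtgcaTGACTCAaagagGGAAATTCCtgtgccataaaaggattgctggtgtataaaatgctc

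Libraries held 15.4 M to 57.3 M reads (18.8 M and 15.4 M in the untreated pair, where M stands for mega), and the level of a ligand is given as normalised reads, that is reads divided by the library's size factor. The 2 libraries of each group are called deeper and shallower by their total, since their replicate numbers were not recoverable. A gene was called higher or lower at an adjusted p under 0.05 in the deposited fit, and every call was repeated with limma on the recovered reads, which takes the spread between libraries from all groups together. All 10 fibroblast markers were tested in every group, with a summed level of 306709 to 789804 and 747564 in untreated cells. Of 12 leukocyte markers 2 were tested. Their summed level was 41.9 in untreated cells and 31.0 to 272 over all groups, highest in RS, and 5 of the 12 stayed under 3 in every group. CD14, a marker of monocytes, made most of it, with 26.4 and 28.3 normalised reads in untreated cells, 109 and 395 in RS, 223 and 289 in Ca2+-Sen on day 8, 130 and 354 in PMD-Sen on day 16, and 208 and 252 in DDR-Sen on day 16, all 4 called higher. CD14 was also called higher on days 0 and 8 of DDR-Sen. The other one tested, CSF1R, had log2 changes of 0.49, −0.99, −0.14 and 0.12 in those 4 groups, with no call. CSF1R was called higher only on day 1 of PMD-Sen. Of 6 endothelial markers 2 were tested, with a summed level of 62.3 in untreated cells and 40.5 to 231 over all groups. The highest sum was in Ca2+-Sen on day 0, where PECAM1 had 116 and 155 against 0 and 5.67 (log2 5.71, SE 0.92). Of 7 epithelial markers 1 was tested, KRT19, and their summed level was 1252 in untreated cells and 316 to 2692 over all groups, lowest in Ca2+-Sen on day 0. The part of these markers in the ligand results was not tested.

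Against untreated cells the calls of the tested ligands were spread unevenly over ligands and days. PMD-Sen had 5 calls higher and 9 lower among 96 ligand-by-day values (5.21% and 9.38%), against 8.61% and 9.10% over all tested genes. Ca2+-Sen had 9 higher and 12 lower (9.38% and 12.5%), against 7.98% and 9.37%, and DDR-Sen had 4 higher and 7 lower (4.17% and 7.29%), against 8.79% and 11.1%. RS had 3 of 12 higher and 1 lower, against 11.2% and 11.0%. Of these 50 calls, 26 were also made by limma in the same direction, and 10 of the 26 stayed called when any 1 library of the comparison was left out: CXCL12, CXCL8, CXCL2 and CXCL3 in PMD-Sen on day 0, CCL26 in Ca2+-Sen on day 0, CXCL12 on day 6 of both Ca2+-Sen and DDR-Sen, and CCL2, CXCL16 and CXCL14 in RS. The median log2 change of the 12 ligands was −0.02 in PMD-Sen on day 0, 0.28 in Ca2+-Sen on day 8 and 1.11 in RS. Over all tested genes it was −0.01, 0.00 and 0.02.

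**Figure D1:**
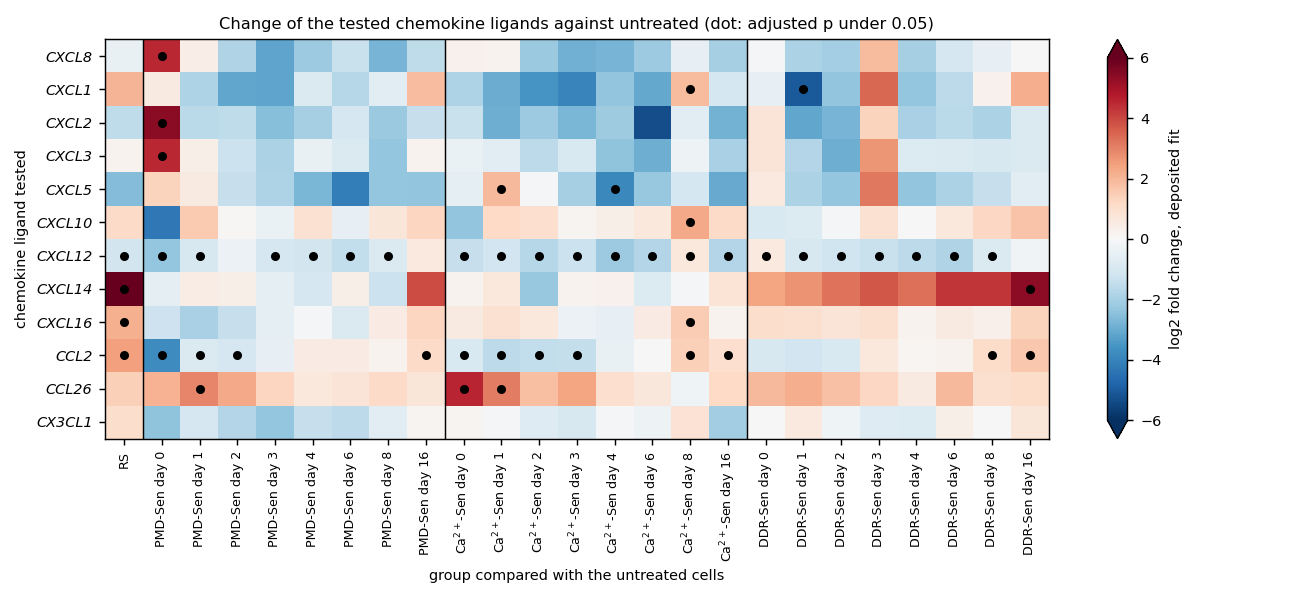
Log2 fold change of each tested chemokine ligand (rows) against untreated cells in RS and on each day of PMD-Sen, Ca2+-Sen and DDR-Sen (columns), from the deposited fit, with a dot where the adjusted p was under 0.05. Most dots fall on CXCL12 and CCL2, and the deepest reds are CXCL2, CXCL3 and CXCL8 in PMD-Sen on day 0, CCL26 in Ca2+-Sen on day 0 and CXCL14 in RS and DDR-Sen on day 16.

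Among the ELR ligands, CXCL8, CXCL2 and CXCL3 rose in PMD-Sen at the end of the SDS treatment and were called on none of the 7 later days. CXCL8 (interleukin-8), the main neutrophil attractant of human fibroblasts, had 3974 and 2701 normalised reads in the deeper and shallower library on day 0 and 37.2 and 255 in the untreated pair. Both treated libraries lay far above both untreated ones. The deposited fit gave a log2 fold change of 4.51 (SE 1.19), or 22.9-fold, with an adjusted p of 0.000683. On day 1 CXCL8 stood at 81.5 and 299, and on day 3 at 12.8 and 19.5, under both untreated libraries but not called (log2 −3.18, SE 1.25, adjusted p = 0.0832).

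CXCL2 (MIP-2-alpha), which signals through the same receptor, had 407 and 209 normalised reads on day 0 of PMD-Sen against 1.55 and 13.2 in untreated cells. Its fold change was 5.41 on the log2 scale (SE 1.20, 42.6-fold, adjusted p = 3.29e-05). CXCL3 (MIP-2-beta) had 227 and 132 against 4.65 and 11.3, a log2 change of 4.53 (SE 0.64, 23.2-fold, adjusted p = 2.22e-11). On every later day of PMD-Sen the libraries of CXCL2 had at most 5.73 normalised reads and those of CXCL3 at most 14.7. CXCL1, CXCL2 and CXCL3 are near-identical paralogs, as are CXCL5 and CXCL6, and the counting could have split reads among them, so values of a single member are uncertain in that respect. Without PMD-Sen day 0 the means over the other 25 groups were 3.34 for CXCL2 and 6.71 for CXCL3, so that both reached the level tested only through the group where they were highest. With p adjusted over all genes with a read, their adjusted p there were 6.07e-05 and 4.1e-11.

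The other ELR ligands were not called at that time. CXCL1 (GRO-alpha) had 49.0 and 22.2 normalised reads on day 0 of PMD-Sen and 4.65 and 45.3 in untreated cells, so that the pairs overlapped (log2 0.53, SE 0.90, adjusted p = 0.708). CXCL5 (ENA-78) had 52.6 and 54.8 against 9.31 and 34.0, a log2 change of 1.33 (SE 0.72, adjusted p = 0.139). CXCL6 (GCP-2), too low for a test, had 0 and 1.31 against 1.55 and 5.67. Among the 3939 ELR reads of the deeper PMD-Sen day 0 library, 84.4% were CXCL8 (95% Clopper-Pearson interval 83.2 to 85.5, counting error only), 8.63% CXCL2, 4.82% CXCL3 and 1.04% CXCL1 (0.748 to 1.41). No CXCL6 read was among them, which allows a share of up to 0.0936%. These shares are of reads, not corrected for the length of the transcripts.

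Single libraries of other groups also held many ELR reads. In the shallower DDR-Sen library of day 3, CXCL8 had 1053 normalised reads, CXCL1 543, CXCL5 382, CXCL3 98.6, CXCL6 87.5 and CXCL2 33.3. Its partner of the same day had 23.2, 4.85, 2.70, 2.16, 3.24 and 3.77 in that order. All 6 ELR ligands were thus high in 1 of 2 libraries, and none was called on that day (adjusted p = 0.479 to 0.743 for the 5 tested). In that library CXCL8 made 47.9% of ELR reads (45.4 to 50.4), CXCL1 24.7% (22.6 to 26.9) and CXCL5 17.4% (15.5 to 19.3). These intervals cover counting error only, and the make-up of single libraries was not tested between groups. CCL20 at 18.1 against 0 and CXCL10 at 38.9 against 8.09 were on the same side, as were the cytokine genes IL1B at 140 against 10.8 and IL6 at 268 against 65.2. With the deeper library of that day left out, limma called CXCL8, CXCL1 and CXCL5 higher by 3.54, 5.20 and 4.41 on the log2 scale, and with the shallower one left out it called CXCL5 lower (−2.60). What made this library differ was not tested.

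CXCL1 also stood apart in the shallower RS library, with 197 normalised reads against 10.3 in the deeper one, and CXCL6 with 52.0 against 2.05. CXCL1 was 45.9% of ELR reads there (42.1 to 49.8) and CXCL8 37.3%. Its RS change of 2.05 on the log2 scale (SE 1.97) was not called (adjusted p = 0.525).

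CXCL1 came back on late days. It had 87.5 and 95.9 normalised reads in Ca2+-Sen on day 8, both above the untreated pair, and was called higher there (log2 1.91, SE 0.66, 3.76-fold, adjusted p = 0.0145), although not by limma (adjusted p = 0.272). On day 16 of DDR-Sen it had 74.6 and 151 and on day 16 of PMD-Sen 32.2 and 147, neither called. In Ca2+-Sen on day 16 it had fallen to 16.4 and 7.40, within the untreated range. The 1 call lower was on day 1 of DDR-Sen, with 2 reads against 27 in untreated cells, a ratio of 0.0347 (95% counting interval 0.00400 to 0.138, adjusted p = 0.00782), which limma did not call (adjusted p = 0.459).

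CXCL5 rose in Ca2+-Sen on day 1, to 75.8 and 87.9 normalised reads (log2 1.95, SE 0.58, 3.86-fold, adjusted p = 0.0102). On day 4 of Ca2+-Sen it was called lower on 3 reads against 24, a ratio of 0.0735 (0.0142 to 0.242, adjusted p = 0.0421, or 0.0794 over all genes with a read). limma made neither call (adjusted p = 0.236 and 0.348). CXCL5 in RS stood at 3.08 and 3.95, under both untreated libraries, and was not called (log2 −2.62, SE 1.08, adjusted p = 0.0650).

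**Figure D2:**
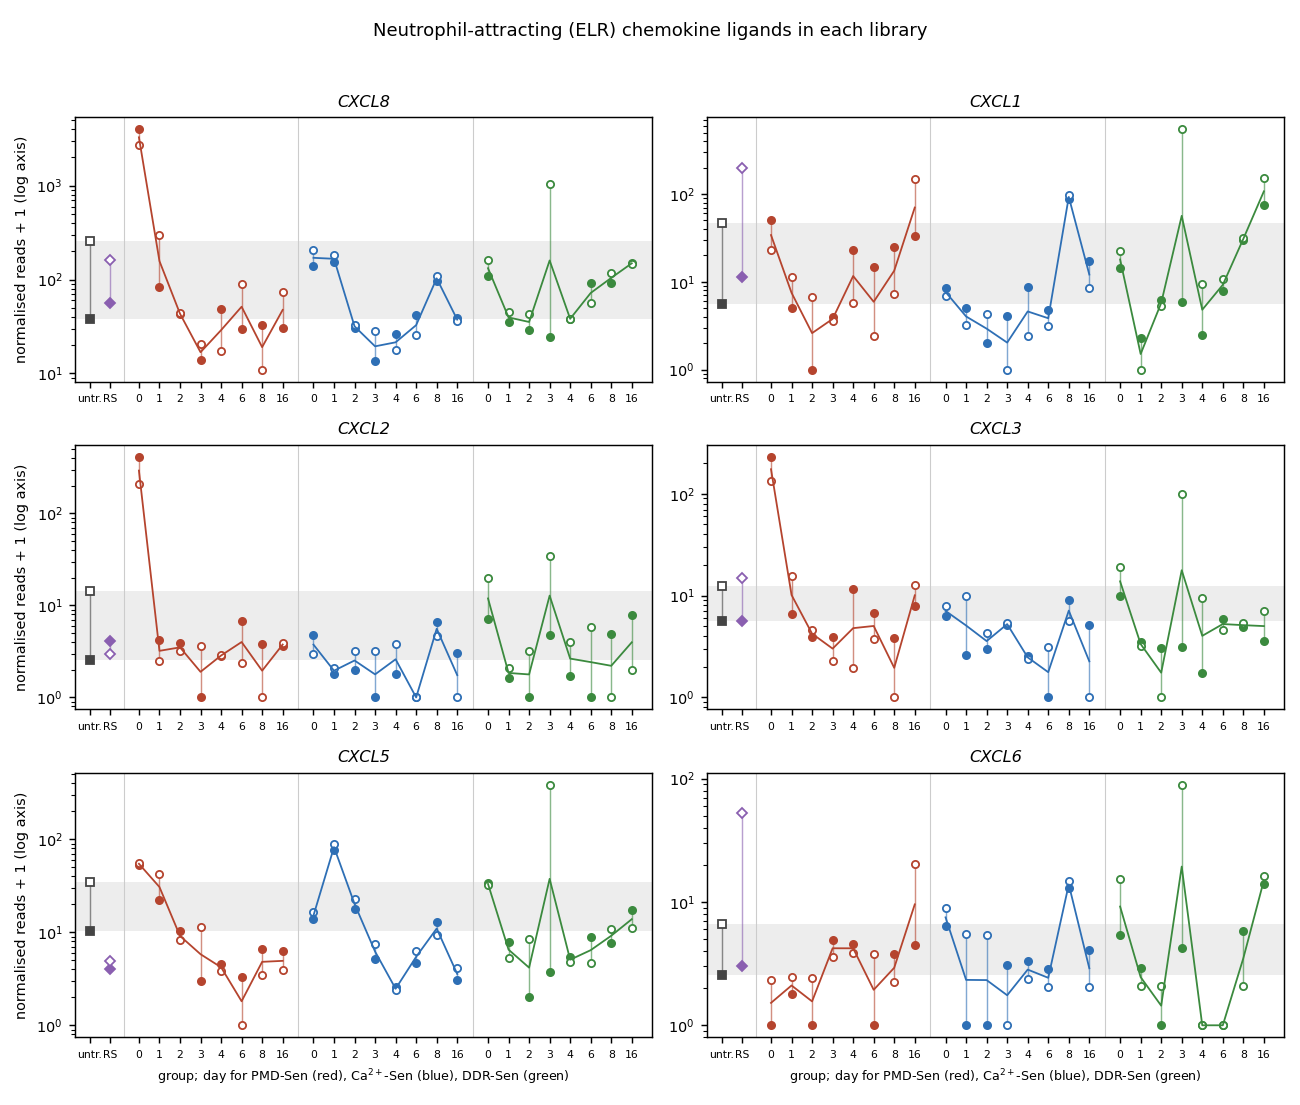
Normalised reads plus 1 of the 6 ELR ligands (log axis) in each library. Filled symbols are the deeper and open symbols the shallower library of a group, lines join the geometric means by day, and the grey band spans the untreated pair; CXCL8, CXCL2 and CXCL3 leave the band on PMD-Sen day 0, and all 6 have 1 high open symbol on DDR-Sen day 3.

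The gap between the 2 libraries of a group was wide for some of the tested ligands in many groups, but not in all. With 3 normalised reads added, the 12 tested ligands had 27 of 312 gaps (8.65%) within the top 1% of 15010 genes of their group, in 15 of the 26 groups, and 8 of the 27 were those of CXCL1. In the untreated pair CXCL8 ranked 35 of 15010 (log2 gap 2.68), CXCL1 38 (2.66) and CXCL2 119 (1.83), where the median gene had 0.15. In DDR-Sen on day 3, CXCL1 ranked 4 (6.12), CXCL5 5 (6.08), CXCL8 6 (5.33) and CXCL3 13 (4.30). CXCL14, CXCL16 and CX3CL1 were never within the top 1%. In Ca2+-Sen on day 0 the widest gap of a tested ligand was 0.58, under the 95th percentile of 0.66 there. Ranks were taken over genes of all levels, and the part of low counts in these gaps was not tested. CXCL3, with a gap of 0.90, was under the untreated 95th percentile of 0.99. Without the deeper untreated library limma gave CXCL8 a log2 change of 3.68 in PMD-Sen on day 0, and without the shallower one 6.43.

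**Figure D3:**
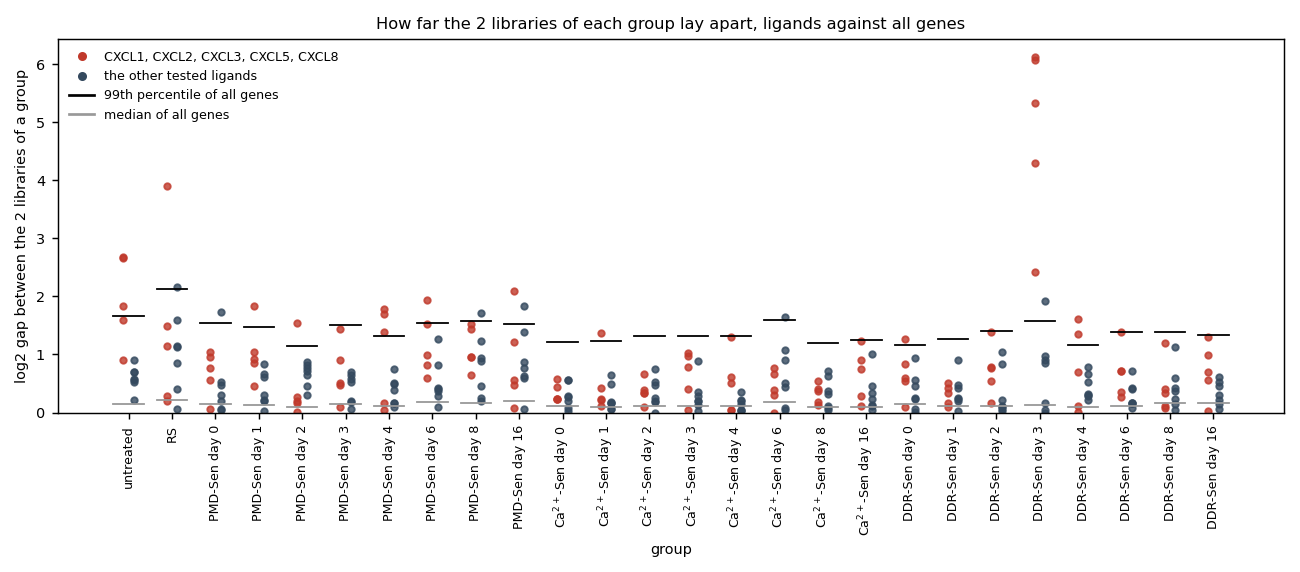
Log2 gap between the 2 libraries of each group, with 3 normalised reads added, for the ELR ligands (red) and the other tested ligands (dark), beside the median (grey line) and 99th percentile (black line) of 15010 genes. DDR-Sen day 3 holds the widest gaps, up to 6.12 for CXCL1, and the untreated pair has CXCL8, CXCL1 and CXCL2 above its 99th percentile of 1.67.

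CCL2 (MCP-1), the main attractant of monocytes through CCR2, was called lower early in PMD-Sen and Ca2+-Sen and higher late under all 3 inducers, and its mean level was highest in RS. It lies on chromosome 17 (chr17:34255218-34257203, plus strand), where 15 of the 41 ligand genes are found. Untreated cells had 735 and 1095 normalised reads. On day 0 of PMD-Sen CCL2 was at 71.7 and 62.7, its lowest level in the series (log2 −3.76, SE 0.26, 13.6-fold lower, adjusted p = 6.97e-45). limma called this fall too (adjusted p = 0.00632), but not without the deeper PMD-Sen library. On days 1 and 2 of PMD-Sen it was still called lower, by 0.87 and 1.02 on the log2 scale (SE 0.20 and 0.19).

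In Ca2+-Sen, CCL2 was lower from day 0 to day 3, with log2 changes of −0.91, −1.55, −1.48 and −1.41 (SE 0.19 to 0.22), and its levels ran from 293 to 583. In DDR-Sen it had 288 to 614 over days 0 to 2, under both untreated libraries, with no call. limma called CCL2 on none of these days outside PMD-Sen day 0.

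The late rise was seen under all 3 inducers. On day 16 CCL2 reached 1608 and 2442 in PMD-Sen (log2 1.15, SE 0.25), 1887 and 1735 in Ca2+-Sen (0.99, SE 0.16) and 2336 and 3186 in DDR-Sen (1.60, SE 0.19). All these libraries lay above both untreated ones. The deposited fit called all 3 (adjusted p = 7.11e-05, 2.91e-08 and 3.43e-15), and limma called DDR-Sen (adjusted p = 0.0111) but not PMD-Sen (0.0756) or Ca2+-Sen (0.215). In Ca2+-Sen it was already at 2504 and 2382 on day 8 (log2 1.42, SE 0.15), and in DDR-Sen at 2088 and 1782 (1.08, SE 0.18).

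In RS, CCL2 had 1836 and 8219 normalised reads, both above the untreated pair, with a gap that ranked 148 of 15010 genes. The log2 change was 2.46 (SE 0.96, 5.49-fold, adjusted p = 0.0471), and with p adjusted over all genes with a read the adjusted p was 0.0934, not called. In the limma fit it was 2.11 (adjusted p = 0.000865), and it ran from 1.05 without the shallower RS library to 3.21 without the deeper one. CCL7 (MCP-3), a neighbour of CCL2 that attracts the same cells, was highest in RS too, at 21.0 and 13.8 against 4.65 and 3.78, while CCL13 reached a mean of 15.7 in DDR-Sen on day 16 against 1.89 in untreated cells, and CCL8 had 11 reads in all 52 libraries.

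CXCL12 (SDF-1) keeps stem cells and lymphocytes in place through CXCR4 and is made steadily by stromal cells. It was the ligand called most often, and it was mostly lower. Untreated libraries had 470 and 546 normalised reads, close together (log2 gap 0.21). In PMD-Sen it fell to 103 and 99.2 on day 0 (log2 −2.33, SE 0.26, 5.02-fold lower, adjusted p = 2.21e-18). It was lower on days 1, 3, 4, 6 and 8 as well, by 0.86 to 1.47 on the log2 scale, and on day 2 (452 and 330) it was not called. On day 16 the pair was split, with 330 and 1182, and limma called CXCL12 higher (1.23) only without the deeper library.

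In Ca2+-Sen, CXCL12 was lower on every day except day 8. The lowest level was 115 and 112 on day 4 (log2 −2.16, SE 0.23, adjusted p = 3e-18), and on day 16 it was 159 and 135 (−1.78, SE 0.22, adjusted p = 2.03e-13). On day 8 it was at 695 and 867, above both untreated libraries and called higher (0.62, SE 0.17, adjusted p = 0.00158), a call that limma did not make (adjusted p = 0.161). The sampled days on both sides of it had 146 and 153 (day 6) and 159 and 135 (day 16), and these steps between days were not tested.

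In DDR-Sen, CXCL12 started higher, at 768 and 761 on day 0 (log2 0.59, SE 0.16, adjusted p = 0.00193, not called by limma, adjusted p = 0.163). It was at 240 and 281 on day 1, called lower from day 1 to day 8, and lowest on day 6 at 151 and 135 (log2 −1.82, SE 0.23, adjusted p = 9.45e-14), and back at 342 and 529 on day 16, with no call. In RS it was at 327 and 149 (log2 −1.09, SE 0.39, adjusted p = 0.0293, or 0.0583 over all genes with a read). limma called CXCL12 in PMD-Sen on days 0 and 6, in Ca2+-Sen on days 0, 2, 4, 6 and 16, in DDR-Sen on days 3, 4 and 6 and in RS, each time lower.

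CXCL16 and CX3CL1 (fractalkine) are the transmembrane chemokines, which tether leukocytes until the proteases ADAM10 and ADAM17 shed them. CXCL16 had 20.2 and 30.2 normalised reads in untreated cells and 76.4 and 140 in RS (log2 2.11, SE 0.56, 4.32-fold, adjusted p = 0.00167). It was called higher in Ca2+-Sen on day 8 as well, at 55.4 and 87.6 (1.51, SE 0.55, adjusted p = 0.0228). In PMD-Sen it had a mean of 10.5 on day 0 and stood at 4.75 and 8.82 on day 1, all 4 libraries under the untreated pair. On day 16 it was at 47.9 and 75.8 without a call against untreated cells (1.30, SE 0.61, adjusted p = 0.123).

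CX3CL1 was called in no group by the deposited fit. Its levels in PMD-Sen on day 0 were 2.39 and 2.61 against 17.1 and 9.44 in untreated cells (log2 −2.41, SE 1.48, adjusted p = 0.202), and in RS 28.2 and 27.0. limma called it lower in PMD-Sen on days 0, 2 and 3 and in Ca2+-Sen on day 16, and higher in RS (adjusted p = 0.0449).

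CXCL10 (IP-10), which interferon induces and which attracts T cells through CXCR3, was highest in Ca2+-Sen on day 8. It had 65.0 and 49.8 normalised reads there against 9.31 and 15.1 in untreated cells (log2 2.25, SE 0.67, 4.76-fold, adjusted p = 0.00355). On day 0 of PMD-Sen 1 CXCL10 read was found in 2 libraries, against 14 in untreated cells, a ratio of 0.0523 (0.00124 to 0.344, adjusted p = 0.0868). Its promoter holds the same NF-kB motif as those of the ELR ligands, on the reverse strand. How the motif relates to the levels was not tested. CXCL11, below the level tested, was highest in Ca2+-Sen on day 1, with a mean of 18.4, and CXCL9 had 57 reads in all 52 libraries.

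CXCL14 (BRAK), a chemokine of epithelia and stroma (chr5:135570679-135579279, minus strand), was nearly absent from untreated cells and marked RS and DDR-Sen. The untreated pair held 1 CXCL14 read. RS held 698, at 265 and 119 normalised reads (log2 7.81, adjusted p = 4e-06; limma 6.96, SE 1.10, adjusted p = 4.89e-06), and the ratio of normalised reads was 236, with a 95% counting interval of 42.2 to 9340. Without RS its mean over the other 25 groups was 5.45, so that CXCL14 reached the level tested only through the group where it was highest. With p adjusted over all genes with a read, its adjusted p in RS was 8.2e-06.

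In DDR-Sen, CXCL14 was above both untreated libraries on every day. It had 3.33 and 5.69 normalised reads on day 0, 15.8 and 18.2 on day 6 and 33.5 and 37.3 on day 16, where it was called (log2 5.36, SE 1.63, adjusted p = 0.00523, ratio 41.4, interval 7.20 to 1655). limma called it on days 6, 8 and 16 of DDR-Sen. In PMD-Sen it had a mean of 12.9 on day 16 (ratio 15.6, 2.59 to 639) and at most 2.37 before, and in Ca2+-Sen it never passed 2.11. The deposited fit called no difference in CXCL14 between PMD-Sen and DDR-Sen on any day.

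CCL26 (eotaxin-3), an eosinophil attractant that signals through CCR3, rose early and most in Ca2+-Sen. It had 96.4 and 101 normalised reads on day 0 of Ca2+-Sen against 6.21 and 1.89 in untreated cells (log2 4.55, SE 0.79, 23.4-fold, adjusted p = 5.18e-08), and 41.9 and 28.9 on day 1 (3.09, SE 0.99, adjusted p = 0.0187). By day 8 it was back at 3.21 and 3.69. In PMD-Sen it was called on day 1, at 31.7 and 32.4 (2.94, SE 1.05, adjusted p = 0.0308, or 0.0569 over all genes with a read), and in DDR-Sen on no day, with 14.4 and 17.7 on day 0. CCL24 (eotaxin-2), its neighbour on chromosome 7 within 53.8 kb, had 19.8 and 21.6 in Ca2+-Sen on day 0 and at most 6.86 in any library of the other groups.

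CCL20, which attracts dendritic cells and Th17 cells through CCR6, was a low ligand. It had 46.6 and 26.1 normalised reads on day 0 of PMD-Sen against 1.55 and 3.78 in untreated cells, and 18.1 in the shallower DDR-Sen library of day 3. It was not high in every library with many ELR reads. In the shallower libraries of RS and of Ca2+-Sen day 1 the ELR ligands summed to 428 and 285, and CCL20 had 0. CCL5 (RANTES) had 2 reads in all 52 libraries.

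**Figure D4:**
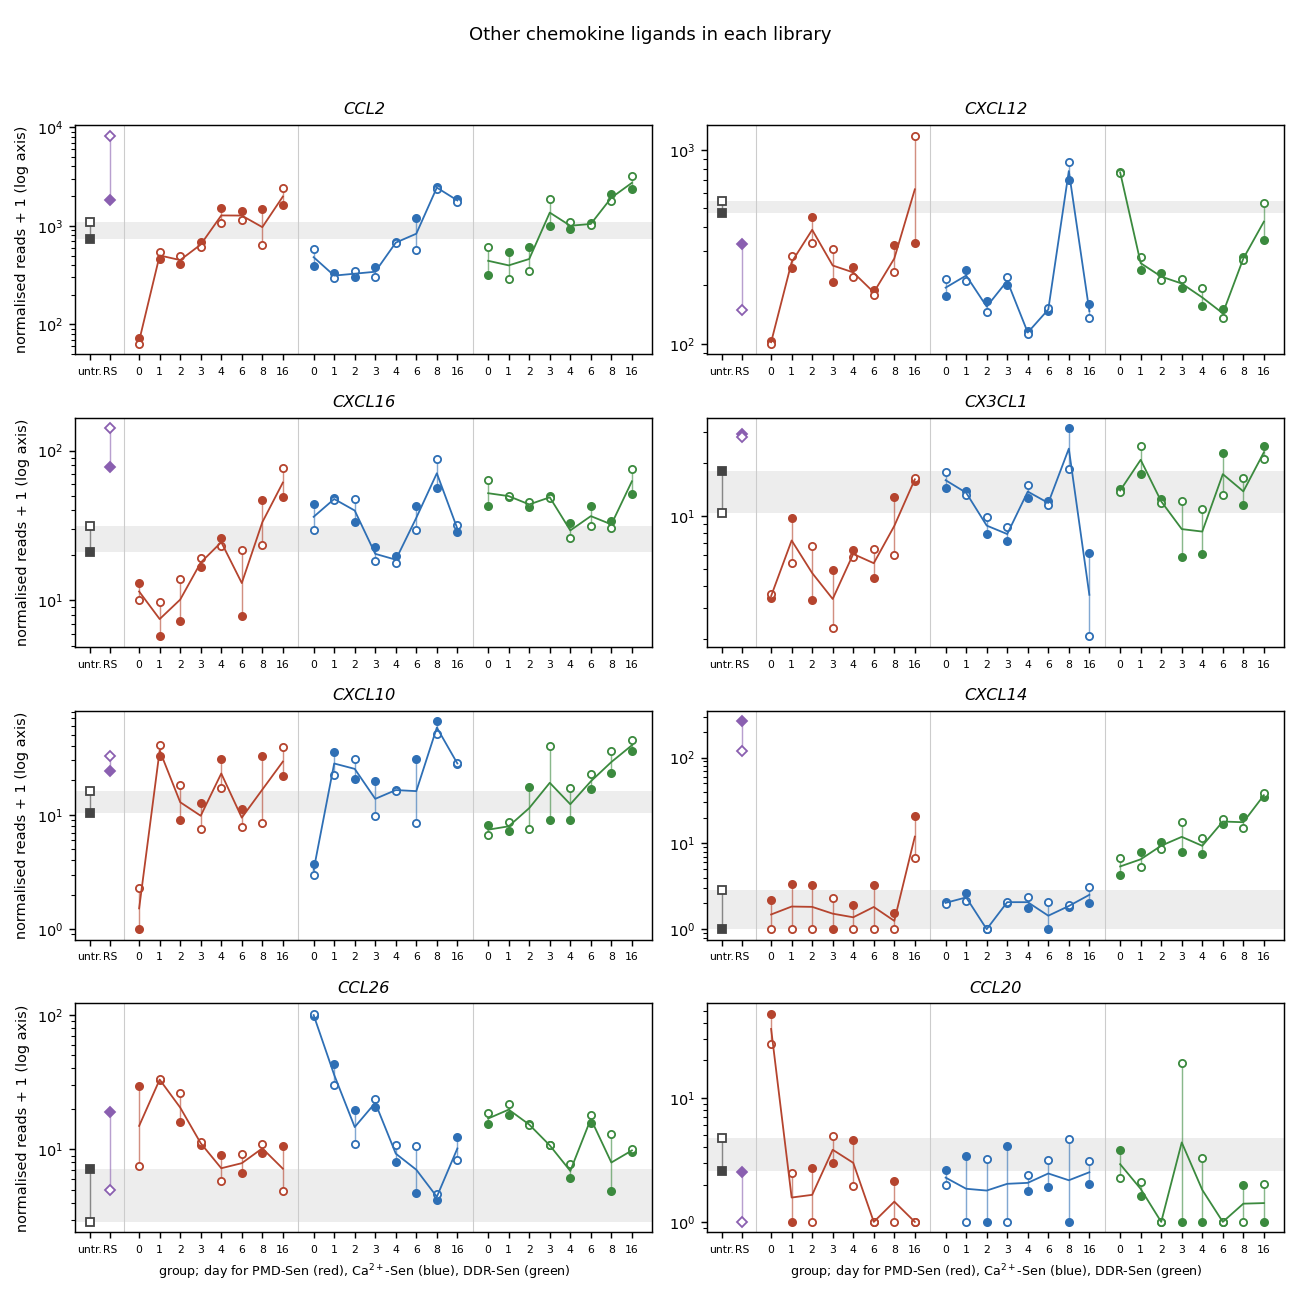
Normalised reads plus 1 (log axis) of 7 tested ligands outside the ELR group and of CCL20, in each library, with symbols, lines and band as in the plot of the ELR ligands. CCL2 climbs under all 3 inducers. CXCL12 lies mostly under the untreated band, apart from Ca2+-Sen day 8, DDR-Sen day 0 and 1 library each of PMD-Sen day 16 and DDR-Sen day 16. CXCL14 is raised in RS, along DDR-Sen and on PMD-Sen day 16.

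The difference between each pair of inducers was tested on the deposited changes of every day. Of the 12 calls between PMD-Sen and another inducer, 10 were on day 0. The shares over all genes given here pool all days, so they do not show how all genes were called on day 0. PMD-Sen against DDR-Sen gave 3 calls higher and 2 lower among 96 (all genes 3.57% and 2.68%), and all 5 were on day 0. CXCL8, CXCL2 and CXCL3 were higher in PMD-Sen by 4.64, 4.62 and 3.75 on the log2 scale (adjusted p = 0.0249, 0.0261 and 0.0111), and CCL2 and CXCL12 lower, with differences of −2.79 and −2.92 (adjusted p = 2.81e-05 and 5.28e-20). With p adjusted over all genes with a read, the adjusted p of CXCL8, CXCL2 and CXCL3 were 0.0442, 0.0465 and 0.0197. CXCL2 and CXCL3 reached the level tested only through PMD-Sen on day 0, so a high level there was part of their choice. In DDR-Sen on day 0 CXCL8 had 108 and 159 normalised reads, CXCL2 6.10 and 19.0, and CXCL3 8.87 and 18.3.

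PMD-Sen against Ca2+-Sen gave 4 higher and 3 lower (3.06% and 3.11%). On day 0 CXCL8, CXCL2 and CXCL3 were higher in PMD-Sen by 4.27, 6.73 and 4.91 (for CXCL8 the adjusted p of 0.0340 became 0.0600 over all genes with a read), and CCL2 and CXCL12 lower, with differences of −2.86 and −0.94. CXCL2 and CXCL3 reached the level tested only through PMD-Sen on day 0. Over all genes with a read, their adjusted p on day 0 were 0.00502 and 0.00415. In Ca2+-Sen on day 0 CXCL8 had 138 and 208, CXCL2 3.75 and 1.96, and CXCL3 5.35 and 6.87. CXCL12 was higher in PMD-Sen on day 2 (1.34) and lower on day 8 (−1.48).

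Ca2+-Sen against DDR-Sen gave 2 higher and 3 lower (4.26% and 3.22%), and CXCL12 made 3 of these 5 calls, with differences of −1.98 on day 0, 1.51 on day 8 and −1.56 on day 16. CXCL5 was higher in Ca2+-Sen on day 1 (3.85, adjusted p = 0.0197) and CCL2 lower on day 3 (−2.05, adjusted p = 0.0222). The CCL26 values of day 0 did not give a called difference in the deposited fit. limma called CCL26 higher in Ca2+-Sen than in DDR-Sen (2.61, SE 0.33, adjusted p = 4.6e-08) and lower in PMD-Sen than in Ca2+-Sen (−2.73, SE 0.44, adjusted p = 2.39e-06). limma also called CXCL16 lower in PMD-Sen than in DDR-Sen and in Ca2+-Sen on days 0, 1 and 2, by 1.75 to 2.90 on the log2 scale, which the deposited fit did not.

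**Figure D5:**
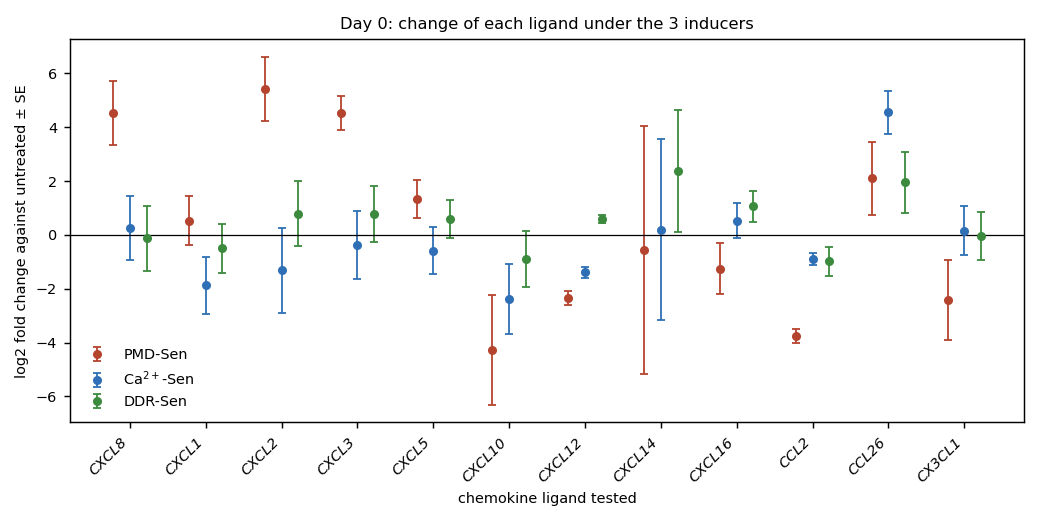
Log2 fold change of each tested ligand against untreated cells on day 0 for PMD-Sen (red), Ca2+-Sen (blue) and DDR-Sen (green), with bars of 1 SE from the deposited fit. CXCL8, CXCL2 and CXCL3 are high in PMD-Sen and were called there only, CCL26 is highest in Ca2+-Sen, and CXCL12 lies on opposite sides of 0 in DDR-Sen and the other two.

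From day 2 to day 16 CCL2 rose within each inducer, which tests late against early cells. The rise was 2.17 on the log2 scale in PMD-Sen (adjusted p = 4.38e-10), 2.47 in Ca2+-Sen (7.34e-19) and 2.53 in DDR-Sen (8.27e-05). CXCL16 rose in PMD-Sen (2.69, adjusted p = 0.0480, or 0.0849 over all genes with a read), from a mean of 9.65 to 47.9 and 75.8, and CXCL12 rose in DDR-Sen (0.97, adjusted p = 0.0341, or 0.0642). These were 2 calls higher in PMD-Sen, 1 in Ca2+-Sen and 2 in DDR-Sen, with 0 lower (all genes 6.96%, 1.79% and 3.56% higher and 9.88%, 0.704% and 3.24% lower). limma made all of these calls except that of CXCL12 (adjusted p = 0.0819).

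Day 16 was also compared with RS, and the deposited fit called 0 of 12 ligands for each inducer. Over all genes it called 0.297% higher and 0.362% lower for PMD-Sen, 2.41% and 1.65% for Ca2+-Sen, and 0.0517% and 0.0904% for DDR-Sen. At an unadjusted p under 0.05 there were 0, 2 and 0 ligands, and limma called 3, 4 and 1. Over all genes limma called 10.5% higher and 12.9% lower for PMD-Sen, 15.8% and 15.6% for Ca2+-Sen, and 2.03% and 3.87% for DDR-Sen. limma called CXCL14 lower than in RS for all 3, by 3.99 in PMD-Sen, 6.52 in Ca2+-Sen and 2.37 in DDR-Sen on the log2 scale (SE 0.55, 0.96 and 0.37). The deposited differences for CXCL14 were −3.91, −7.01 and −2.45. CXCL14 reached the level tested only through RS (mean 5.45 without it), so a high level in RS was part of its choice. limma was fitted only to genes at the level tested, so these CXCL14 calls are not independent of that choice. limma further called CXCL12 higher and CXCL16 lower than RS in PMD-Sen, and CCL2, CXCL16 and CX3CL1 lower in Ca2+-Sen.

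The receptors through which these ligands act were mostly below the level tested in these fibroblasts. Of 23 chemokine receptors 6 were tested, and CXCR2, CXCR3, CXCR4, CCR2 and CX3CR1 had means of 0.661, 0.603, 0.619, 0.351 and 0.633. Receptor genes had 2 calls higher and 4 lower of 48 in PMD-Sen (all genes 8.61% and 9.10%), 5 and 2 in Ca2+-Sen (7.98% and 9.37%), 3 and 1 in DDR-Sen (8.79% and 11.1%), and 2 and 0 of 6 in RS (11.2% and 11.0%). ACKR3, a scavenger that removes CXCL12 without signalling through G proteins, had 74.5 and 106 normalised reads in untreated cells. It fell to 8.07 and 11.5 on day 2 of PMD-Sen (log2 −3.21, SE 0.53) and rose to 548 and 587 on day 8 of Ca2+-Sen (2.67, SE 0.24) and 316 and 586 in RS (2.33, SE 0.40). On day 16 it was called higher under all 3 inducers.

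ACKR4, a scavenger of CC ligands that was at 3.10 and 11.3 in untreated cells, had 114 and 167 in RS (log2 4.34, SE 0.69) and 109 and 111 in DDR-Sen on day 16 (3.99, SE 0.69). CCR10, a receptor of skin-homing lymphocytes, was called once, higher in Ca2+-Sen on day 8 (1.23, SE 0.46), and CCR7, CXCR6 and CCRL2 were not called in any group.

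Genes that act upstream of the ligands were called in both directions. Of 17 NF-kB subunits and inhibitors 15 were tested, with 6 calls higher and 17 lower of 120 in PMD-Sen, 5 and 19 in Ca2+-Sen, 8 and 27 in DDR-Sen, and 0 and 3 of 15 in RS. Over all tested genes the shares higher and lower were 8.61% and 9.10% in PMD-Sen, 7.98% and 9.37% in Ca2+-Sen, 8.79% and 11.1% in DDR-Sen, and 11.2% and 11.0% in RS. On day 0 of PMD-Sen, when CXCL8, CXCL2 and CXCL3 were high, NFKBIZ, a nuclear cofactor of NF-kB, was at 1856 and 1534. Untreated cells had 554 and 789 (log2 1.34, SE 0.18). BCL3, another nuclear cofactor, was lower on day 0 of PMD-Sen (−1.99, SE 0.20). The median log2 change of the 15 was −0.22 on that day, against −0.01 over all tested genes. Of 9 other transcription factors of chemokine genes, 8 were tested, with 10 higher and 16 lower of 64 in PMD-Sen, 12 and 12 in Ca2+-Sen, 16 and 8 in DDR-Sen, and 3 and 0 of 8 in RS. CEBPB, which acts with NF-kB on CXCL8, rose on day 0 of PMD-Sen (1.09, SE 0.12). Its mean was highest on day 0 of Ca2+-Sen, at 6140 against 2770 in untreated cells, where CXCL8 was not called. The part of CEBPB in the ligand results was not tested. Of 9 proteases that cleave or shed chemokines, 7 were tested, with 11 higher and 8 lower of 56 in PMD-Sen, 13 and 12 in Ca2+-Sen, 16 and 8 in DDR-Sen, and 1 and 0 of 7 in RS. The 1 in RS was DPP4, which inactivates CXCL12 by trimming it, at 11860 and 11727 against 3626 and 4162 (1.60, SE 0.15).

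Among 15 cytokine genes upstream of or secreted with chemokines, 9 were tested. They had 2 calls higher and 20 lower of 72 in PMD-Sen (all genes 8.61% and 9.10%), 8 and 11 in Ca2+-Sen (7.98% and 9.37%), 8 and 12 in DDR-Sen (8.79% and 11.1%), and 3 and 1 of 9 in RS (11.2% and 11.0%). IL6 was high with CXCL8, CXCL2 and CXCL3 on day 0 of PMD-Sen, at 704 and 545 against 71.4 and 111 (log2 2.79, SE 0.28, adjusted p = 2.93e-22). It was also higher in RS (1.40, SE 0.51), on day 8 of Ca2+-Sen (1.21, SE 0.32) and on day 16 of DDR-Sen (1.08, SE 0.40). IL1B, which drives NF-kB through the IL-1 receptor, was called higher on day 1 of PMD-Sen, at 32.5 and 85.3 against 4.65 and 5.67, when no ELR ligand was called. It was called on day 0 of DDR-Sen too, at 42.1 and 137 (4.13, SE 0.83), where no ELR ligand was called. On day 3 of DDR-Sen it was called again (3.86, SE 1.04). IL1A, of the same list and below the level tested, had its highest mean on day 0 of PMD-Sen, at 60.2 against 1.72 in untreated cells. The part of either gene in the ligand results was not tested.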

How the data were processed

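RNA of WI-38 cells was sequenced by the study on a NovaSeq in paired ends, 2 libraries in each of 26 groups. The submitters' processing notes name Trim Galore, HISAT2, HTSeq, featureCounts and DESeq2 with no role, order or version, and GRCh38/hg38. Strand-specific counting is not given in the sources used here. The 52 deposited files held 25 distinct tables, each of 1 group against the untreated cells. In each the authors deposited, per gene, a mean of counts divided by size factors over 4 libraries (unit signal), a log2 fold change and the standard error of it, and a p-value, raw and adjusted. These columns are the authors' own fit; since nothing else was deposited, the fold changes, errors and p-values of single genes are used as data, and p-values were adjusted anew (Benjamini-Hochberg) over 15479 genes, those whose 26 group means averaged 10 or more. Calls were made at an adjusted p under 0.05. Differences between groups were tested as the difference of 2 log2 changes over the root of their summed squared standard errors (normal, two-sided), which counts the untreated error more than once.

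The whole reads of each library were recovered by solving every deposited mean for 4 whole numbers, with the untreated reads required to be the same in every table. This gave all 52 libraries for 15010 of the tested genes (97.0%) and for all 41 ligands. Recovered libraries carry no replicate number. Levels are reads over size factors, on the scale of the RS table. limma 3.58.1 (voom, R 4.3.3) was fitted to these reads over all 26 groups as an alternative, and without each library in turn. Reads were solved with numba 0.67.0, figures drawn with matplotlib 3.10.9, and the rest computed with pandas 2.3.3, SciPy 1.17.1 and NumPy 2.4.6 under Python 3.11.15. The tests were checked on simulated data. The study describes the libraries of a group as independent samples, without naming cultures, and p-values measure the spread between them. Counting intervals (95%) cover counting error only.

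The ligands and the gene lists were chosen with earlier results of these data known. Every tested ligand and receptor is named. Ligands with a table mean of at least 10 that were not tested are given by level, the rest are counted and some are named with a level after their values were seen, and of the other lists genes were named from the 3 largest changes among called genes of a comparison. IL6 and IL1B on day 3 of DDR-Sen and the tested markers were named after their values were seen. Alternatives were a mean of at least 100, no filter, a log2 change of at least 1, centring on the median of tested genes, library totals, and limma. Gene coordinates are from GENCODE release 29 on GRCh38, promoter sequences from RefSeq on GRCh38.p14. Promoters of 11 ligands, among them CCL2, CXCL16 and CX3CL1, were not analysed here.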

Additional observations from a re-analysis of the deposited data

Results flagged for a closer look

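Differences between groups in the deposited changes were found for 22 ligand comparisons, each past an adjusted p of 0.05 in the test of the difference itself. PMD-Sen minus DDR-Sen on day 0 was −2.79 for CCL2, −2.92 for CXCL12, 4.64 for CXCL8, 4.62 for CXCL2 and 3.75 for CXCL3 on the log2 scale. PMD-Sen minus Ca2+-Sen on day 0 was −2.86 for CCL2, −0.94 for CXCL12, 4.27 for CXCL8, 6.73 for CXCL2 and 4.91 for CXCL3, and for CXCL12 1.34 on day 2 and −1.48 on day 8. Ca2+-Sen minus DDR-Sen was −1.98, 1.51 and −1.56 for CXCL12 on days 0, 8 and 16, 3.85 for CXCL5 on day 1 and −2.05 for CCL2 on day 3. Day 16 minus day 2 was 2.17 for CCL2 and 2.69 for CXCL16 in PMD-Sen, 2.47 for CCL2 in Ca2+-Sen, and 2.53 for CCL2 and 0.97 for CXCL12 in DDR-Sen. limma made 19 of these 22 calls, and 12 of the 19 stayed called without any 1 library of the comparison. CXCL2 and CXCL3 reached the level tested only through PMD-Sen on day 0, the higher group in their differences here.

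Ligands below the level tested but with a table mean of at least 10 numbered 4, each above untreated cells in 1 group given here, with no test. CXCL6 had a mean of 45.4 normalised reads in DDR-Sen on day 3 against 3.61 in untreated cells, nearly all of it from the shallower library. CCL20 had 36.4 in PMD-Sen on day 0 against 2.66, CCL7 17.4 in RS against 4.22, and CCL24 20.7 in Ca2+-Sen on day 0 against 2.50, each high in both libraries.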

How the results depend on the processing

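No call reversed under any alternative that kept all libraries. In the fits without 1 library, CXCL5 in DDR-Sen on day 3 went in opposite directions, as given above. The limma fit counted 12 ligand calls in place of 21 for Ca2+-Sen against untreated cells, 13 in place of 5 for PMD-Sen against DDR-Sen, 15 in place of 7 for PMD-Sen against Ca2+-Sen, and 12 in place of 5 for Ca2+-Sen against DDR-Sen. Over all genes limma called 9.92% higher and 11.3% lower for the first of these. For the pairs of inducers, in that order, it called 9.24% and 6.96%, 8.87% and 8.13%, and 10.9% and 9.32%. It counted 3, 4 and 1 in place of 0 for day 16 of PMD-Sen, Ca2+-Sen and DDR-Sen against RS, with the limma shares of all genes given above. For day 16 against day 2 of PMD-Sen it counted 5 in place of 2. Of all genes it called 24.1% higher and 28.3% lower there. A mean of at least 100 left 2 of 4 RS calls and 1 of 2 for day 16 against day 2 of PMD-Sen, with 3 ligands tested. No filter left 2 for RS and 1 each for day 16 against day 2 of PMD-Sen and DDR-Sen, and a log2 change of at least 1 left 1 for DDR-Sen. The cause was not tested. Of 300 single values against untreated cells, limma lost 24 calls and gained 15, and of 360 differences it lost 3 and gained 38. Centring and library totals changed none. Leaving out each library in turn (group libraries were added after seeing the data) gave limma counts of 7 to 19 for PMD-Sen, 6 to 13 for Ca2+-Sen, 2 to 15 for DDR-Sen and 3 to 4 for RS. The lowest of the first 3 was without the deeper untreated library, for Ca2+-Sen also without the shallower one, and the highest without the deeper library of PMD-Sen day 16, either of Ca2+-Sen day 6 and the deeper of DDR-Sen day 3. Counts were 11 to 22 for PMD-Sen against DDR-Sen, 12 to 17 for PMD-Sen against Ca2+-Sen and 10 to 21 for Ca2+-Sen against DDR-Sen. Day 16 against RS gave 1 to 4, 3 to 5 and 1 to 4, and day 16 against day 2 gave 3 to 7, 0 to 1 and 1 to 3, for PMD-Sen, Ca2+-Sen and DDR-Sen. A group left with 1 library is assumed to vary like the others. No paired analysis was possible because the recovered libraries carry no replicate number of the labels.

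Depth limits the low ligands: the untreated pair, the shallowest of the series, held 1 read of CXCL14, 5 of CCL26, 8 of CXCL2 and 9 of CXCL3, so folds of these carry wide intervals.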
